A study of Mus musculus with 5 samples.

Results

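Crabp1 and Krt20 are the genes that mark the presumed CT26 tumour cells in these libraries. Cycling tumour-like cells are here the dividing cells among barcodes with these transcripts and almost none of the stroma genes Dcn and Lum. They numbered 161 of the 9835 barcodes of the 2 expression libraries. All 161 came from the Control library (161 of 5649 barcodes), and the aCTLA4 library held 0 (of 4186). A barcode was taken when it had at least 200 genes, at most 15% mitochondrial UMIs (unique molecular identifiers, 1 per captured transcript), at least 5000 UMIs in all, at least 10 UMIs of Crabp1, at least 1 of Krt20, none of the leukocyte gene Ptprc and fewer than 2 of the stroma genes Dcn and Lum together. It was called cycling with 2 or more UMIs of Mki67, Top2a and Birc5 in sum. The same barcodes with none of these 3 transcripts, 123 cells, are the non-cycling tumour-like cells, and the 33 barcodes with 1 such UMI were set aside. The cells were thus chosen by their measured UMIs of Crabp1, Krt20, Ptprc, Dcn, Lum, Mki67, Top2a and Birc5, and the levels of these genes are given as a description.

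The mice were BALB/c, 6 weeks old, with CT26 cells under the skin. CT26 is a mouse colon carcinoma line that came from a BALB/c animal. In the aCTLA4 group mice received 100 µg of anti-CTLA-4 antibody, clone 9H10, into the peritoneum on days 5, 8 and 11, the Control group received PBS on those days, and tissue was taken on day 13. Single cells were sequenced with 10x 5′ chemistry, and each group had 1 library. The number of mice behind a library is not given in the sources used here. With 1 library a group no difference below has a replicate check and none carries a p-value, and the intervals cover counting error only.

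A dividing cell copies its DNA in S phase and separates the copies in mitosis, with the gap phase G2 between them. E2F transcription factors switch on the genes for DNA replication and nucleotide supply as cells enter S phase. The genes of G2 and mitosis come on later, through the MuvB complex with B-MYB and FOXM1, at a promoter element called the cell cycle homology region, which often stands near CCAAT boxes bound by NF-Y. Mki67 (Ki-67) coats mitotic chromosomes, Top2a (topoisomerase II alpha) untangles DNA, and Birc5 (survivin) belongs to the chromosomal passenger complex.

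The promoters of Mcm6 from the S list, of Ube2c from the G2/M list, of Top2a from the rule, and of Bnip3, a hypoxia-responsive mitophagy receptor that was low in the cycling cells, are printed to show where the words for such elements lie. Each runs 5′ to 3′ on the gene's own strand over 250 bases before and 50 after the start in RefSeq (GRCm38.p6). The regions are chr1:128359656-128359955 on the minus strand for Mcm6, a subunit of the replicative helicase, chr2:164769679-164769978 on the plus strand for Ube2c, the ubiquitin-conjugating enzyme of the anaphase-promoting complex, chr11:99024140-99024439 on the minus strand for Top2a and chr7:138909457-138909756 on the minus strand for Bnip3. Capitals mark TTTCGCG, its variant TTTGGCG and the word CCAAT in Mcm6, TTTGAA and CCAAT in Ube2c and Top2a, and ACGTG in Bnip3, all on either strand. Adjoining matches can overlap, as where TTTGGCG and TTTCGCG on the other strand run together in Mcm6.
Mcm6: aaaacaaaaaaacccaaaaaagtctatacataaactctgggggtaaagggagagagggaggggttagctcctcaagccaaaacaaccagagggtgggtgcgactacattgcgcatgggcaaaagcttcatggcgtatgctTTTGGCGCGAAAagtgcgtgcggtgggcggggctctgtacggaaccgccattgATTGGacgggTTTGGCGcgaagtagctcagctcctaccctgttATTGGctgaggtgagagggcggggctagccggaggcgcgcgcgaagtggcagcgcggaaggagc
Ube2c: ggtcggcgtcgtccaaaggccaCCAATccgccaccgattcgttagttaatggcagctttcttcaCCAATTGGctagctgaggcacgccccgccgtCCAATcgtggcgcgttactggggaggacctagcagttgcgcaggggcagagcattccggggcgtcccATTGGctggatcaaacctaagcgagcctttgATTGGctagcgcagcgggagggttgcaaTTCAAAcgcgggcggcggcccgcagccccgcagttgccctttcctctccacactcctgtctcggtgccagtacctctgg
Top2a: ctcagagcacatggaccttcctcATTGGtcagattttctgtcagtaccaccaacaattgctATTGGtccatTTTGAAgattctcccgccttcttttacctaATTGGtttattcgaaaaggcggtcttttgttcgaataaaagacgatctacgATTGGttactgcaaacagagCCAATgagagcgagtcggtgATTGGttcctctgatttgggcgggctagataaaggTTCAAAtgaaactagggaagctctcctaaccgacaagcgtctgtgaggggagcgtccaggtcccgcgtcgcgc
Bnip3: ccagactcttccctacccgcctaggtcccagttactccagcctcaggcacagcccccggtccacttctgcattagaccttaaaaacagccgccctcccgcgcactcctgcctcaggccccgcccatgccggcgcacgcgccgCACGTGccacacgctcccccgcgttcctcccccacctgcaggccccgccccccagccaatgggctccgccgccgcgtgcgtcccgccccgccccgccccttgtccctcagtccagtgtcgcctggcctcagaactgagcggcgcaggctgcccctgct

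TTTGAA, the core of the cell cycle homology region, was in 65.4% of 52 promoters of the G2/M list, in 17.6% of 34 promoters of the S list and in 17.9% of all 32851 promoters. TTTGAA and CCAAT occurred together in 51.9% of the G2/M promoters, in 11.8% of the S promoters and in 6.95% of all. At least 1 of the E2F-type words TTTCGCG, the variant TTTGGCG and the variant TTTCCCG was in 41.2% of the S promoters, 19.2% of the G2/M promoters and 5.58% of all. The core words of hypoxia response elements, ACGTG and the variant GCGTG, were searched for after the values had been seen. ACGTG was in 54.3% of 46 promoters of the hypoxia and glycolysis list, 19.2% of the G2/M promoters and 19.6% of all. GCGTG was in 50% of the hypoxia, 59.6% of the G2/M and 32.4% of all promoters, and either word in 76.1%, 63.5% and 43.8%. GGGCGG, an Sp1-type word, was in 78.3% of the hypoxia, 73.1% of the G2/M, 64.7% of the S and 35.7% of all promoters. The tables matched 31 of 43 S, 47 of 54 G2/M and 32 of 35 hypoxia genes. These shares describe letters in the windows, and no binding was measured.

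The markers of the cells are given in UMIs per 10000. Crabp1, Krt20 and Ptprc chose the cells, so their levels are a description, and the label was checked on the other markers. In GRCm38 Crabp1 lies at chr9:54764748-54773110 on the plus strand and Krt20 at chr11:99428403-99438150 on the minus strand. Crabp1, a retinoic acid binding protein, was at 42 in the cycling and 36.8 in the non-cycling cells, against 11.3 in the 583 Control barcodes with at least 2 Ptprc UMIs. Krt20, an intestinal keratin, was at 2.34 in the cycling and 3.41 in the non-cycling cells, against 0.745 in the Ptprc barcodes. Other simple-epithelial genes were nearly absent: Krt8, Krt18, Krt19, Epcam and Cdh1 had 1 UMI each over the 161 cycling cells and Krt7 had 0. Of the keratinocyte list, which summed to 8.46 in the cycling cells, 11.4 in the non-cycling cells and 4.1 in the Ptprc barcodes, Lgals7, galectin-7 of stratified epithelia, made up most, at 8.1, 11.1 and 3.22. Krt10 was at 0.267, 0.241 and 0.122. Mesenchymal genes were present. Vim was at 108 in the cycling and 144 in the non-cycling cells, N-cadherin (Cdh2) at 0.57 and 0.387, Col1a2 at 2.24 and 2.42, and Prrx1 at 2.28 and 2.4. The fibroblast list, without the rule genes Dcn and Lum, summed to 4.15 in the cycling cells, 4.57 in the non-cycling cells and 1.28 in the Ptprc barcodes. It was detected in 95%, 90.2% and 22.8% of cells. Of its genes, Col1a1 was in 68.3%, Col3a1 in 57.1% and Pdgfra in 42.9% of the cycling cells, while Postn was at 0. The cells thus had mesenchymal genes, fibroblast markers among them, and Lgals7 and Krt20 with almost none of the simple-epithelial keratins. Xist, a long non-coding RNA chosen after values were seen, had 0 UMIs in the 161 cycling and 1 in the 123 non-cycling cells. It was in 60.2% of the Ptprc barcodes. The name "tumour-like" refers to the Crabp1 and Krt20 rule, and whether some of the cells are fibroblasts was not tested. The macrophage list (9 markers, all detected) summed to 0.57 in the cycling cells, 0.65 in the non-cycling cells and 123 in the Ptprc barcodes, and the T cell list to 0.0126, 0 and 5.03. The dendritic cell list summed to 1.06, 2.23 and 140. Its members Flt3, Xcr1 and Clec9a were at 0 in the cycling cells and rare in the Ptprc barcodes (3.43%, 0.515% and 1.54% of cells). Its MHC class II genes were present in some cells. Cd74 was in 11.8% of the cycling and 18.7% of the non-cycling cells, and H2-Aa in 6.83% and 12.2%. The list reached 96.8 and 161 in single cells. A T cell receptor contig was found in 1 of 161 cycling and 0 of 123 non-cycling cells. The libraries shared 20 barcodes, none of them a member.

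The aCTLA4 library held 19989467 UMIs and the Control library 86478313. Cycling cells had 5108 to 75776 UMIs (median 29987) and a median of 4907 genes, and non-cycling cells 5174 to 48397 UMIs (median 22798) and 3888 genes. Mitochondrial UMIs were a median of 1% in the cycling and 0.963% in the non-cycling cells. The depth gap between cycling and non-cycling cells moves with the comparison, and results are given as shares of UMIs.

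Cycling cells were absent at this depth from the aCTLA4 library and made up a small share of the deep barcodes of the Control library. Among barcodes of at least 5000 UMIs, the aCTLA4 library had 0 of 1021, which allows a share of up to 0.294% by a floor of 3 counts and has an exact 95% upper limit of 0.361%. The Control library had 161 of 3176, or 5.07% (exact 95% interval 4.33 to 5.89%). The libraries differed in tumour-like cells as a whole. Barcodes with Crabp1, Krt20 and no Ptprc were 6 of 1021 in the aCTLA4 library (0.588%) and 2008 of 3176 in the Control library (63.2%). Of the 6 in the aCTLA4 library, 3 had 1 UMI of the cycling genes and 3 had none, so the cycling fraction of treated tumour cells was not detectable. With 1 library a group, the treatment and the depth and handling of a library cannot be told apart.

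Within the Control library 161 of 317 tumour-like cells were cycling, 50.8% (exact 95% interval 45.1 to 56.4%). The Dcn and Lum limit removed 1691 of the 2008 Crabp1 and Krt20 barcodes. Of these left-out barcodes 682 were cycling, 40.3% (38 to 42.7%), and 792 had none of the 3 transcripts. Before that limit the median Dcn level was 2.45 per 10000 in the 843 cycling and 6.29 in the 915 non-cycling barcodes. Near the cycling threshold the counts were 12 cells with 2 UMIs and 11 with 3 inside it, and 33 with 1 and 123 with none outside it. Near the Dcn and Lum limit 87 cycling cells had none and 74 had 1 UMI, and 44 and 39 cycling barcodes just outside had 2 and 3.

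Mki67, Top2a and Birc5, the genes of the rule, were at 1.05, 2.68 and 3.19 per 10000 over all cycling cells. A cycling cell had 2 to 109 of their UMIs (median 14). Across the transcriptome, 6252 genes had at least 100 UMIs over the 161 cycling and 123 non-cycling cells. The ratio of UMI shares was at least 1.5-fold higher in cycling cells for 1273 of them (20.4%) and at least 1.5-fold lower for 356 (5.69%). The median of all genes was itself shifted by 0.20 on the log2 scale, so each list median below is read against 0.20. With that median set to 0, 775 genes were higher and 650 lower. Outside the cell cycle lists 1010 of 5943 genes were higher (17.0%) and 353 lower (5.94%). Of 309 cell cycle list genes 263 were higher (85.1%) and 3 lower (0.971%), and since the rule chose cells by cycle genes nothing is read from those shares. The rule used this contrast, so these ratios describe the cells and are no test of them.

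**Figure D1:**
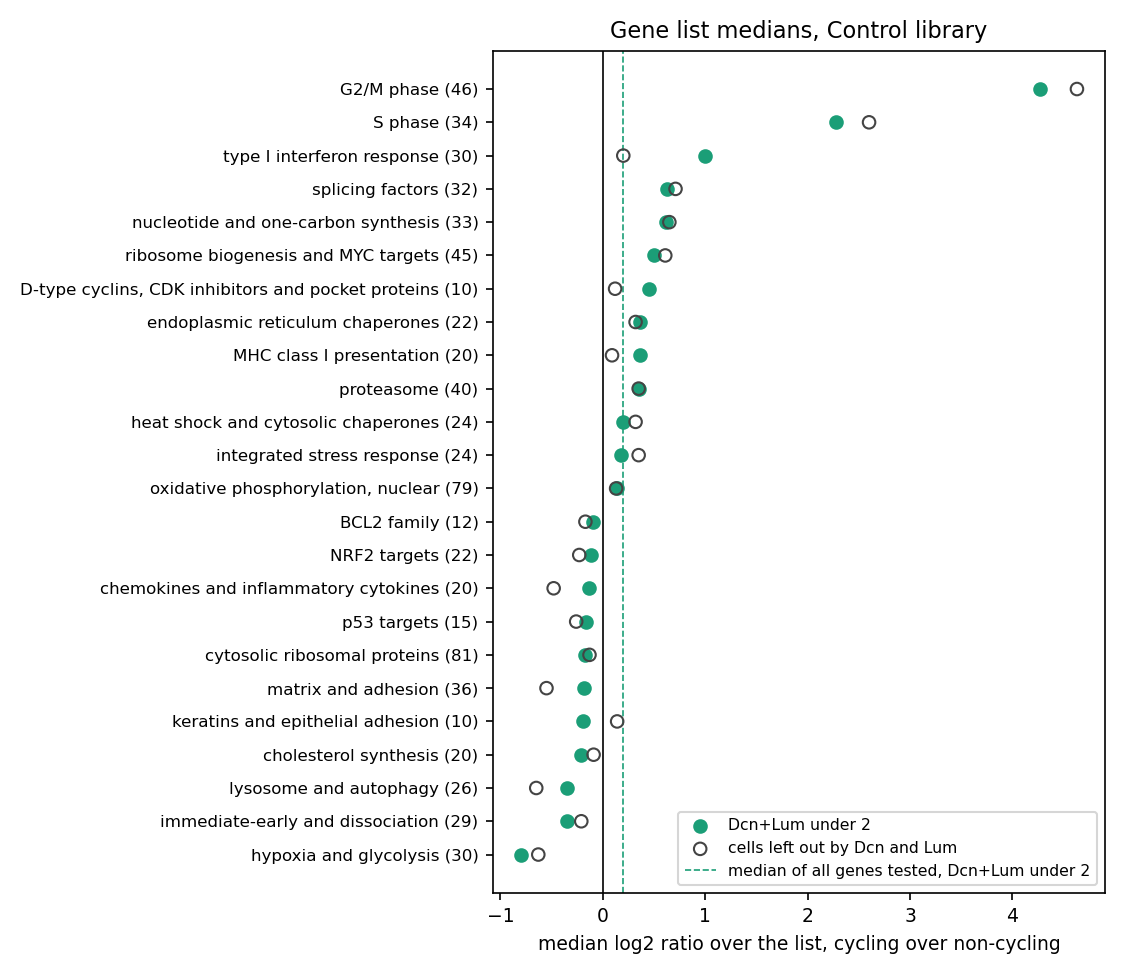
Median log2 ratio of cycling over non-cycling cells (horizontal axis) for each list with at least 10 genes tested, with filled points for the tumour-like cells, open circles for the barcodes left out by Dcn and Lum, and a dashed line at the median of all genes in the tumour-like cells (0.20). Among the filled points the G2/M list (4.27) and the S list (2.28) stand farthest to the right, the interferon list is at 1.0, and hypoxia and glycolysis is farthest to the left at -0.80.

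The S phase genes were all higher in the cycling cells. Of 34 tested, 34 were at least 1.5-fold higher, with a median log2 ratio of 2.28. Rrm2, the small subunit of ribonucleotide reductase, was at 2.08 per 10000 in the cycling and 0.142 in the non-cycling cells, a ratio of 14.7 (95% interval 10.7 to 20.7). Mcm6 was at 1.61 in the cycling and 0.618 in the non-cycling cells (2.61, 2.21 to 3.1). Tyms, thymidylate synthase, had the ratio 5.15 (4.29 to 6.22), and Mcm2, a helicase subunit, was at 0.799 in cycling and 0.462 in non-cycling cells, a ratio of 1.73 (1.41 to 2.13).

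The genes of G2 and mitosis had larger ratios than the S list. The rule chose the cells by Top2a and Birc5, which are known to peak in G2 and mitosis, so this gap is a description. Of 46 tested without the rule genes, 45 were at least 1.5-fold higher (median log2 ratio 4.27, also with 3 genes at 0 in the non-cycling cells set to a floor of 3 UMIs over the group). Ube2c was at 5.03 in the cycling and 0.0781 in the non-cycling cells, a ratio of 64.4 (42.5 to 103). Its levels per cell were 0 to 31.3 (median 1.39) in the cycling and 0 to 1.7 (median 0) in the non-cycling cells. Ect2, the guanine nucleotide exchange factor that starts cytokinesis, had 211 UMIs in the cycling and 0 in the non-cycling cells. Hmgb2, a chromatin protein, was also plentiful outside the cycle, at 8.32 in the cycling and 1.05 in the non-cycling cells. Psrc1, a spindle protein, was the 1 gene under 1.5-fold (ratio 1.24, 0.918 to 1.68). Among the replication-dependent histone genes 4 of 6 tested were higher, led by Hist1h2ae (16.5), Hist1h1d (14.9) and Hist1h1b (12.8), and Hist1h1c was lower (0.621). These histone transcripts mostly lack poly(A) tails.

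The regulators of the G1 decision differed little beside these lists. Over all genes 20.4% were higher and 5.69% lower. Of 10 D-type cyclin, CDK inhibitor and pocket protein genes tested, 2 were at least 1.5-fold higher and none lower. The pair was Cdkn2d, the CDK4 and CDK6 inhibitor p19, at 0.66 in the cycling and 0.259 in the non-cycling cells (ratio 2.55, 1.97 to 3.33), and Rbl1, the pocket protein p107 (6.51). Ccnd1, cyclin D1, was at 10.1 in cycling and 7.43 in non-cycling cells (1.36, 1.29 to 1.43). Cdkn1a, the inhibitor p21, was at 2.61 in cycling and 3.52 in non-cycling cells (0.741, 0.682 to 0.807). Cdkn1b, p27, had a ratio of 0.997 and Myc 0.937. Cdkn2a, Cdkn2b and Cdkn1c had 0 UMIs in both groups, which allows a level of up to 0.00631 per 10000 in the cycling and 0.0107 in the non-cycling cells.

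Hypoxia and glycolysis genes were lower in the cycling cells. Of 30 tested, 20 were at least 1.5-fold lower, against 5.69% of all genes, and none was higher (median log2 ratio -0.80). Per cell the list took 33.8 to 661 UMIs per 10000 (median 116) in the cycling and 44 to 667 (median 194) in the non-cycling cells. The ranges overlapped almost fully and the medians were apart. Ndrg1 (chr15:66929318-66969640, minus strand), a stress gene that HIF raises, was at 0 to 15.8 (median 0.526) in the cycling and 0 to 23.2 (median 1.96) in the non-cycling cells, with a ratio of summed UMIs of 0.254 (0.23 to 0.28). Bnip3 was at 0 to 23.8 (median 0.481) in the cycling and 0 to 24.4 (median 2.96) in the non-cycling cells (ratio 0.353, 0.326 to 0.383). Car9, a surface carbonic anhydrase that is a textbook hypoxia marker, had 18 UMIs in the cycling and 87 in the non-cycling cells (0.123, 0.0694 to 0.205). It was in 4.35% of cycling and 17.1% of non-cycling cells, and the 5 highest cells held 88.9% and 56.3% of its UMIs. In the barcodes left out by Dcn and Lum its ratio was 0.511.

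The glycolytic enzymes were also lower, with ratios nearer to 1. Pgk1, phosphoglycerate kinase, was at 12 in cycling and 24.6 in non-cycling cells (0.489), Aldoa, aldolase, at 17.9 and 34.6 (0.517), the glucose transporter gene Slc2a1 at 1.14 and 2.55 (0.448), and Ldha, lactate dehydrogenase, at 25.3 and 33.9 (0.747). Other members differed little: Kdm3a, a histone demethylase, had a ratio of 0.959, Mxi1, a MYC antagonist, 0.962, and the interval of Vegfa, the angiogenic growth factor, included 1 (0.748, 0.552 to 1.02). Among the 12 genes furthest down by the naming rule, Ndrg1, Bnip3, P4ha2 (collagen prolyl hydroxylase, 0.242), Ero1l (disulfide oxidase of the endoplasmic reticulum, 0.301), Ankrd37 (0.309) and Bnip3l (mitophagy receptor, 0.4) are genes that hypoxia is known to raise.

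When the 284 cells, each thinned to 5000 UMIs, were ordered by the hypoxia list, 73 of the 96 lowest were cycling (76%, 66.3 to 84.2%), 56 of 93 in the middle (60.2%) and 32 of the 95 highest (33.7%, 24.3 to 44.1%). Median depth was 25148 UMIs in the lowest, 29538 in the middle and 24771 in the highest group. In 1 small subset the direction of the gene ratios did not hold. In the 21 cycling and 16 non-cycling cells with at most 2 UMIs of macrophage, T cell and fibroblast markers, 15 list genes passed the filter, 1 was higher, none was lower and the median was 0.27. Their summed list level was 257 per 10000 in the cycling and 220 in the non-cycling cells. Per cell the list level was 45.8 to 661 (median 171) in the cycling and 79.2 to 429 (median 219) in the non-cycling cells. The per-cell medians thus kept the direction of the full groups. Median depths were 13109 and 10666 UMIs.

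**Figure D2:**
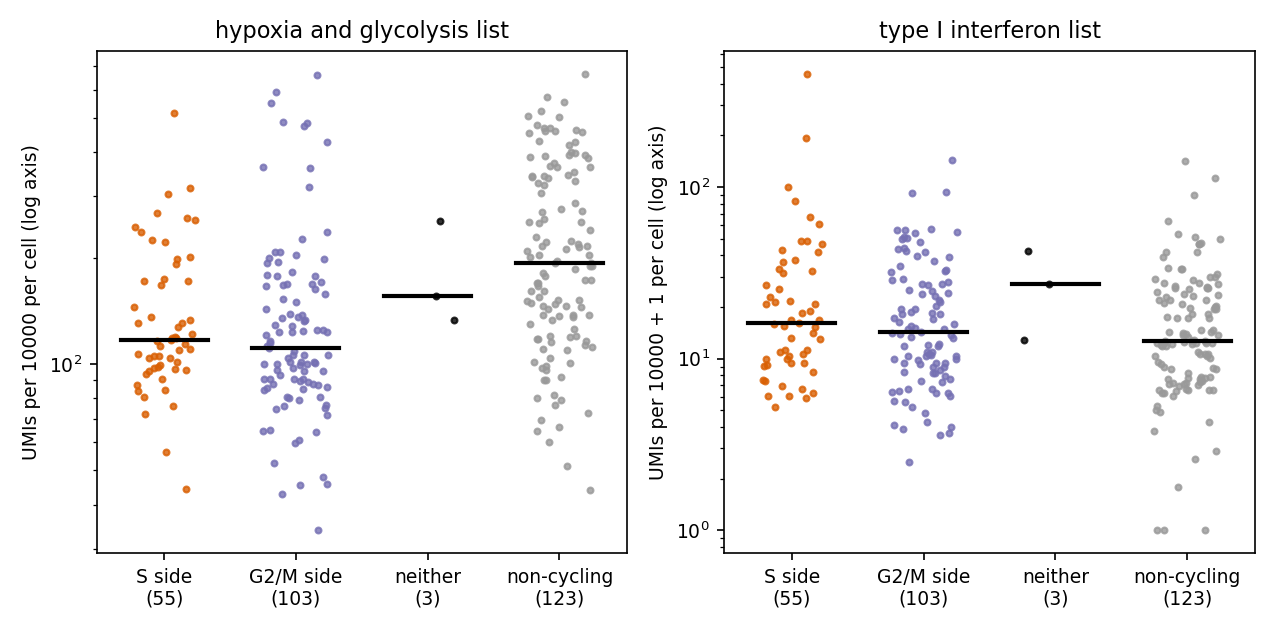
Level of the hypoxia and glycolysis list (left, UMIs per 10000) and of the type I interferon list (right, UMIs per 10000 plus 1) in every cell on log axes, for cycling cells on the S side, the G2/M side and neither (stages defined with the S and G2/M lists) and for non-cycling cells, each point 1 cell and each line the median. The hypoxia medians are 117 on the S side, 111 on the G2/M side and 194 in non-cycling cells, and single cycling cells reach 457 for the interferon list.

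Some other stress and clearance genes were also lower. Over all genes 5.69% were lower and 20.4% higher. Hmox1, haem oxygenase, had the lowest ratio of the naming rule, at 0 to 24.4 (median 0) in the cycling and 0 to 156 (median 0.324) in the non-cycling cells (0.149, 0.132 to 0.168). The 5 highest cells held 46% of its cycling and 39.4% of its non-cycling UMIs. Leukocytes also express it, with 7.06 in the Ptprc barcodes. The macrophage list summed to 0.57 in the cycling and 0.65 in the non-cycling cells, and reached 38.3 and 94.3 in single cells. Whether leukocyte transcripts contributed to Hmox1 was not tested. The rest of the NRF2 list moved less, with 4 of 22 lower, 1 higher and a median of -0.12. In the lysosome and autophagy list 6 of 26 were lower and none higher (median -0.35), among them Map1lc3a, which coats autophagosomes, at 0.85 in cycling and 1.72 in non-cycling cells. Of 29 immediate-early and dissociation genes 9 were lower and none higher (median -0.35), including Jund (0.507). In the 21 cycling and 16 non-cycling cells with at most 2 marker UMIs the immediate-early median was 1.39. Lgals3, galectin-3, was at 9.88 in cycling and 23.3 in non-cycling cells (0.424), Cebpd, a stress transcription factor, at 1.78 and 5.02 (0.355), and Tnfrsf9, the costimulatory receptor 4-1BB, at 0.414 and 1.85 (0.224). In the same small subset the log2 ratios were 0.06 for Lgals3 and 0.51 for Cebpd, turned round from the full groups. Ribosomal protein genes stayed close together, with none of 81 past 1.5-fold and a median of -0.17.

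Genes of nucleotide supply, splicing and ribosome assembly were higher in the cycling cells, by less than the cycle genes. Over all genes 20.4% were higher and 5.69% lower. In nucleotide and one-carbon synthesis 17 of 33 genes were at least 1.5-fold higher and none lower (median 0.62). Dck, deoxycytidine kinase, had 147 UMIs in cycling and 8 in non-cycling cells (10.9, 5.38 to 25.7), and Shmt2, the mitochondrial serine hydroxymethyltransferase, was at 1.37 and 0.621 (2.21, 1.87 to 2.63). The plentiful Nme2 (1.11) and Aprt (0.986) differed little. In the cells with at most 2 marker UMIs 0 of 8 nucleotide genes that passed the filter were higher (median 0.01), with the list at 61.3 in the 21 cycling and 63.7 in the 16 non-cycling cells. Among splicing factors 17 of 32 were higher and none lower (median 0.63), with Srsf1 at 2.31 and Hnrnpd at 2.21. The splicing list took 30.3 to 164 UMIs per 10000 (median 106) in the cycling and 36.2 to 158 (median 69.5) in the non-cycling cells. In ribosome biogenesis 19 of 45 were higher and none lower (median 0.50), led by Tcof1 (2.34) and Nolc1 (2.01), which serve the transcription and assembly of ribosomal RNA. Outside these lists the naming rule gave Knstrn, a kinetochore protein, at 0.673 in cycling and 0.0817 in non-cycling cells (8.24, 5.39 to 13.2), Dnph1, a nucleotide hydrolase (4.65), Dnajc9, a histone co-chaperone (3.93), Selenoh, a nucleolar selenoprotein, at 4.16 and 1.1 (3.78, 3.35 to 4.27), and the splicing proteins Lsm2 (3.09) and Lsm3 (3.27).

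Interferon-response genes were higher in the cycling sum, and a few cells carried much of it. Of 30 genes tested, 21 were at least 1.5-fold higher and none lower (median 1.0), against 20.4% of all genes higher. The filter of 100 UMIs summed both groups, so a gene could pass mainly through the group where it was high. The cycling group held 4755489 UMIs and the non-cycling group 2816115, so scarce genes high in cycling cells passed more easily. These counts depend on that filter. The list took 1.52 to 457 UMIs per 10000 (median 14.2) in the cycling and 0 to 141 (median 11.7) in the non-cycling cells. Without the 5 cells of each group with the highest list share, an alternative added after the data were seen, 11 of 18 genes were higher, 1 was lower and the median was 0.84. Cxcl10 (chr5:92346638-92348889, minus strand), the interferon-induced chemokine that draws CXCR3-bearing lymphocytes and here a member of the chemokine list, was at 0 to 154 (median 0) in the cycling and 0 to 32 (median 0) in the non-cycling cells (7.11, 6.1 to 8.32). The 5 highest cells held 81.1% of its cycling UMIs, and without the 5 highest of each group the ratio was 4.1. The list members Ifit1 (0.935) and Irf7 (0.784) were not higher. Slfn9, a Schlafen family gene outside the list, was spread over more cells, with 23% of its cycling UMIs in the top 5 cells and a level of 0 to 8.65 (median 0.23) in the cycling and 0 to 1.64 (median 0) in the non-cycling cells (8.6, 5.82 to 13.2).

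Antigen presentation genes stood close to genes at large. Of 20 MHC class I genes 5 were higher and none lower (median 0.36), against 20.4% of all genes higher and a median of 0.20, and the 5 included the immunoproteasome subunit Psmb9 (2.32) and the peptide transporter Tap1 (2.34). H2-K1 (1.14), H2-D1 (1.13) and B2m (1.05) were nearly level. Cd274, the gene of PD-L1, had 51 UMIs in the cycling and 11 in the non-cycling cells (2.75, 1.41 to 5.84). The top 5 cells held 68.6% of its cycling and 63.6% of its non-cycling UMIs, and after thinning 3.73% of cycling and 3.25% of non-cycling cells had a UMI. In the barcodes left out by Dcn and Lum its ratio was 0.719.

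The following lists had medians between -0.21 and 0.36, with 0.20 for all genes. Their counts stand beside shares over all genes of 20.4% higher and 5.69% lower. Of 79 nuclear genes of oxidative phosphorylation 4 were higher and 1 lower (median 0.14), with Cycs, cytochrome c, at a ratio of 2.01. Of 40 proteasome genes 5 were higher and none lower (0.35). Of 24 genes of the integrated stress response 6 were higher and 3 lower (0.18). The serine synthesis enzymes Psat1 (1.92) and Phgdh (1.62) were among those higher, and Ddit4, an inhibitor of mTORC1 that hypoxia also raises (0.525), among those lower. Of 22 chaperones of the endoplasmic reticulum 6 were higher and 1 lower (0.36), with Sdf2l1 at 2.83 and the plentiful Hspa5 at 1.09. Of 24 cytosolic chaperones none was higher and 5 were lower (0.20), among them Hspa1b (0.358). Cholesterol synthesis had none higher and 2 of 20 lower (-0.21), and p53 targets none higher and 1 of 15 lower (-0.16). Matrix and adhesion genes were higher for 3 and lower for 8 of 36 (-0.18), with Thbs1, thrombospondin 1, at 0.23, and in the barcodes left out by Dcn and Lum 20 of 42 were lower (-0.55). Chemokines and inflammatory cytokines were higher for 3 and lower for 4 of 20 (-0.13), with the macrophage migration inhibitory factor Mif at 0.655. Of the 5 EGF receptor ligands tested Btc (1.62) was higher and Areg (0.648) was lower, with a median of 0.27 that turned to -0.27 at a filter of 20 UMIs.

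The left-out barcodes, a second set of cells from the same library and no independent sample, gave hypoxia, splicing, nucleotide and ribosome biogenesis medians of the same sign and an interferon median nearer to 0. Over 682 cycling and 792 non-cycling left-out barcodes 15.4% of 10120 genes were higher and 10.4% lower, with a median of 0.07. Hypoxia and glycolysis genes were lower for 16 of 30 and higher for none (median -0.63), with Ndrg1 at 0.394 and Bnip3 at 0.42. The plentiful glycolytic members Ldha (0.978) and Pkm (0.913) were almost level there, against 0.747 and 0.698 in the tumour-like cells. Splicing factors were higher for 23 of 32 (0.71), nucleotide genes for 17 of 34 (0.65) and ribosome biogenesis for 25 of 46 (0.61). Interferon genes were higher for 8 of 39 (0.20), Cxcl10 at 1.58, while Slfn9 was at 4.91. In 68 cycling and 249 non-cycling macrophages, called by C1q genes in the same library, 8.74% of 2574 genes were higher and 10.3% lower. There hypoxia genes were lower for 2 of 22 (median -0.08), interferon genes were higher for none and lower for 9 of 20 (-0.39), and splicing factors were higher for 9 and lower for 1 of 29 (0.49). The macrophages are shallower and fewer genes pass, and the differences between cell types were not tested.

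Set directly against the 682 cycling left-out barcodes, which were deeper (median 42694 UMIs), the 161 cycling cells had 390 of 9536 genes at least 1.5-fold higher (4.09%) and 186 lower (1.95%). Their cycle was alike in level, with the S list at 28.2 per 10000 in the cycling tumour-like and 26.3 in the left-out cells and the G2/M list at 59.1 and 59.7. Hypoxia and glycolysis was at 150 and 141. Interferon genes were higher for 25 of 39 (median 0.67), and for 5 of 37 (0.28) without the 5 highest cells of each group. Genes named here were chosen after their values were seen. Serpina3g, a serine protease inhibitor, was at 0.559 in the cycling tumour-like and 0.226 in the left-out cells (2.47) with 22.2% of its UMIs in the top 5 cells. Spp1, the secreted matrix protein osteopontin, was at 33.8 and 57 (0.592) and Csrp2, a LIM protein of smooth muscle, at 1.82 and 3.38 (0.537). Dcn had a ratio of 0.0351, which the rule set.

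The cycling cells were placed in S or in G2/M by the list in which they stood further above the mean of non-cycling cells, after thinning to 5000 UMIs and with at least 1.5 times that mean. By this score 55 of 161 were on the S side (34.2%, 26.9 to 42%), 103 on the G2/M side (64%, 56 to 71.4%) and 3 on neither (1.86%, 0.386 to 5.35%). Non-cycling cells, which the same score also divides, were 22 of 123 on the S side (17.9%), 15 on the G2/M side (12.2%) and 86 on neither (69.9%). After thinning, cells on the S side had 6 to 48 S list UMIs (median 21) and those on the G2/M side 0 to 27 (median 9), while G2/M list UMIs were 2 to 49 (median 13) and 8 to 86 (median 36). These are ranges of a score and not separate types: 127 cells reached 1.5 on both lists, and 10 lay within 0.25 log2 of a tie. Median depth of the cycling cells was 32462 UMIs on the S side and 29069 on the G2/M side. Among the non-cycling cells it was 23334 on the S side, 7099 on the G2/M side and 23966 on neither, so their G2/M side cells were shallow. Top2a and Birc5, which the rule uses, are known to peak in G2 and mitosis.

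**Figure D3:**
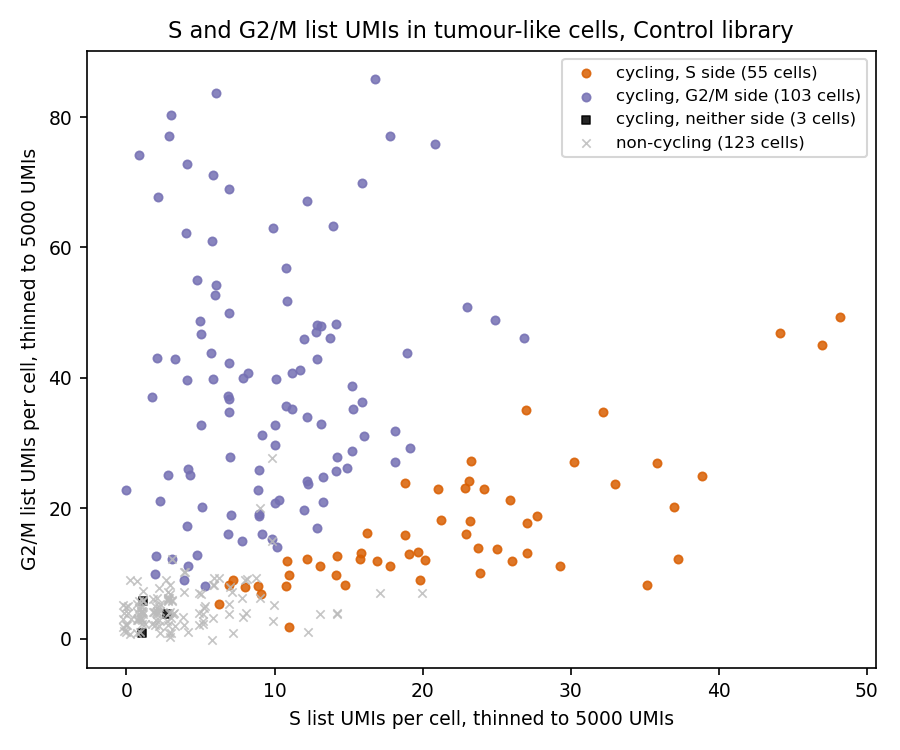
S list UMIs (horizontal) against G2/M list UMIs (vertical) of every tumour-like cell thinned to 5000 UMIs, with each point 1 cell. The 55 S side and 103 G2/M side cells spread away from the 123 non-cycling cells along both axes, with many cells between the arms.

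Between the stages 390 of 4978 genes were at least 1.5-fold higher on the S side (7.83%) and 162 lower (3.25%), with a median of 0.06. Genes of the S and G2/M lists defined the sides and are given as a description. Ccne1, the cyclin that starts replication, was at 0.437 per 10000 on the S side, 0.0609 on the G2/M side and 0.0497 in non-cycling cells. Mcm5, a helicase subunit, was at 1.42, 0.606 and 0.17, Pcna, the polymerase clamp, at 2.47, 1.01 and 0.476, and Rrm2 at 2.86, 1.67 and 0.142. The replication genes thus stayed above the non-cycling level on the G2/M side, apart from Ccne1, which was near it. The mitotic genes were steeper. Ube2c was at 0.719 on the S side, 7.66 on the G2/M side and 0.0781 in non-cycling cells, Cdc20, the activator of the anaphase-promoting complex, at 0.328, 2.64 and 0.0462, and Cenpa, the centromeric histone, at 0.754, 4.65 and 0.21. Ccna2, cyclin A2, which acts in S phase and in G2, was at 1.09, 2.67 and 0.032. Per cell Ube2c was at 0 to 3.47 (median 0.406) on the S side, 0 to 31.3 (median 3.51) on the G2/M side and 0 to 1.7 (median 0) in non-cycling cells.

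**Figure D4:**
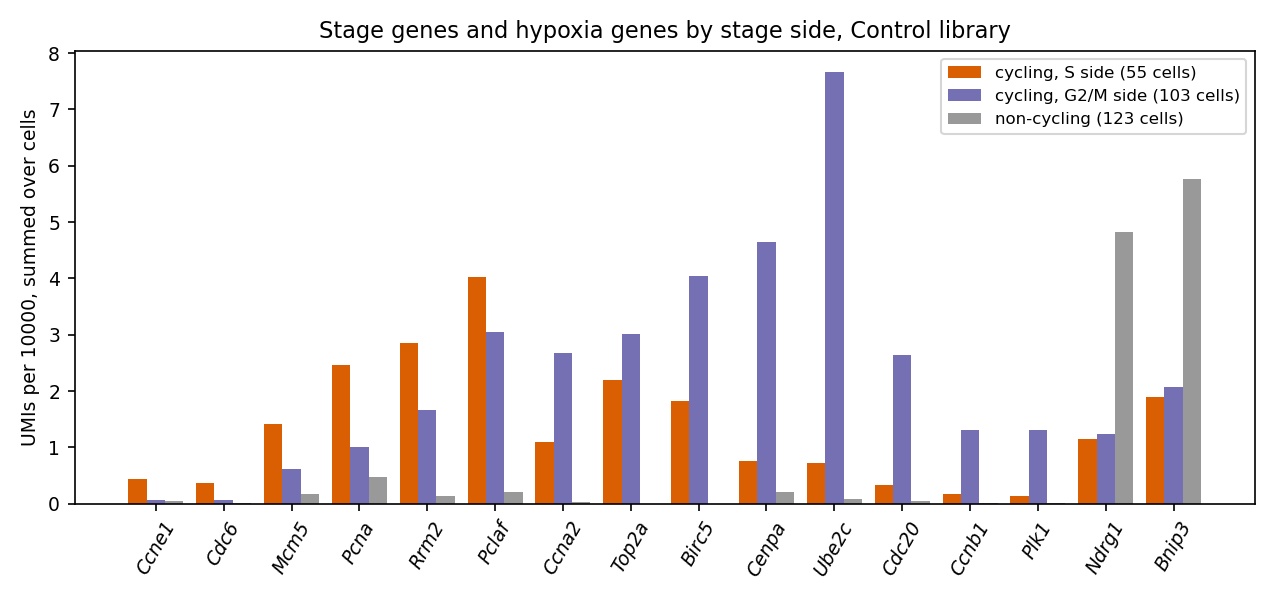
Levels of cell cycle genes and of Ndrg1 and Bnip3 (bars, UMIs per 10000 of the summed cells, linear axis from 0) on the S side, on the G2/M side and in non-cycling cells, in that order. Ube2c stands at 0.719, 7.66 and 0.0781, and Rrm2 at 2.86, 1.67 and 0.142.

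By the naming rule, which keeps genes of the S and G2/M lists out, the S side was led by Ccl5, a T cell chemokine, with a ratio of 4.59 over the G2/M side (3.57 to 5.94), and the top 5 cells held 98.3% of its S side UMIs. Slfn9 came next with a ratio of 4.2 (3.36 to 5.27). The level of Slfn9 was 0 to 8.65 (median 0.754) on the S side and 0 to 3.91 (median 0) on the G2/M side. Lig1, the ligase of Okazaki fragments (3.07), Mcm3 (3.02), Tcf19 (2.92) and Cdt1, a replication licensing factor (2.76), followed. Isg15 (2.23) and Hmox1 (2.45) met the same rule, and the top 5 cells held 71.6% of the S side UMIs of Isg15 and 76.7% of those of Hmox1. The median of Isg15 was 0.215 on the S side and 0.402 on the G2/M side, against the direction of its sum. On the G2/M side the rule gave Plk1, the mitotic kinase (ratio 0.11), Ccnb1, cyclin B1, at 0.173 on the S side and 1.3 on the G2/M side (0.132, 0.0881 to 0.192), Cdkn3, a CDK phosphatase (0.151), Kif20a, a cytokinesis motor (0.212), Pttg1, securin (0.239), and Ubald2 (0.316). Cd74 (0.0831) and Cxcl2 (0.289) rested on few cells: 253 of 266 G2/M side UMIs of Cd74 came from 1 cell, and the top 5 cells held 86% of those of Cxcl2.

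Hypoxia and splicing genes were near level between the stages, while nucleotide, immediate-early and, through a few cells, interferon genes were not. Hypoxia and glycolysis was at 148 per 10000 on the S side, 151 on the G2/M side and 246 in non-cycling cells, with 1 of 22 genes past 1.5-fold (median -0.04). Ndrg1 was at 1.14, 1.23 and 4.82 and Bnip3 at 1.89, 2.08 and 5.76. Per cell the hypoxia list was at a median of 117 on the S side, 111 on the G2/M side and 194 in non-cycling cells. Splicing factors were at 105, 109 and 70.9. Nucleotide and one-carbon genes leaned to the S side, at 73.7, 64.9 and 54 (7 of 30 higher, median 0.34). In summed UMIs immediate-early genes leaned to the G2/M side, at 71.8, 93.5 and 101 (8 of 29 lower, median -0.29). The immediate-early list was uneven over the cycling cells, at 0 to 688 per cell (median 35.4). Whether a few cells carried its lean was not tested. Ccnd1 was at 8.54 on the S side, 11.1 on the G2/M side and 7.43 in non-cycling cells, and Cdkn1a at 2.17, 2.88 and 3.52. For interferon genes 16 of 23 were higher on the S side (median 0.77), but without the 5 highest cells of each side 2 of 14 were (0.16).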

How the data were processed

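The authors deposited filtered UMI count matrices per library, made with Cell Ranger 5.0.0 on mm10 and GRCm38 per the submitters' processing notes. The deposited counts cover 32285 genes, summed here to 32245 symbols. The 2 expression libraries were used; of the T cell receptor libraries only contig barcodes were read. The members and gene lists were chosen with earlier results of these data known. UMIs were summed over the cells of a group, the ratio of UMI shares was computed with an exact conditional binomial 95% interval for genes with at least 100 UMIs over both groups, and shares of cells have exact Clopper-Pearson intervals. Both cover counting error only. A gene was counted as higher or lower at 1.5-fold, with no test, since each group has 1 library. No test across samples was possible, so no count model was fitted.

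Genes were named by a rule: with at least 200 UMIs and a UMI in 10% of cells of the higher group, the 12 highest and 12 lowest ratios outside the cell cycle lists by the interval bound nearest to 1, the extreme and most abundant members of each list, the 8 highest and 8 lowest between S and G2/M sides outside the S and G2/M lists (other cell cycle genes included), cyclins, CDK inhibitors and the 10 most overdispersed genes. Mitochondrial, ribosomal protein, Gm and Rik genes were left out of that rule. Doublets were kept. Scrublet marked 41 Control barcodes (0.727%), of which 1 was cycling and 3 were non-cycling. Thinning drew 5000 UMIs per cell. Alternatives changed the cycling threshold, depth, scaling, filters and markers. Python 3.11.15, numpy 2.4.6, scipy 1.17.1, pandas 2.3.3 and scanpy 1.11.5 were used, the ratio code was tested on simulated data, and gene coordinates and promoters are from GRCm38.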

Additional observations from a re-analysis of the deposited data

How the results depend on the processing

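With the cycling threshold at 1 or 5 UMIs the cycling share of tumour-like cells was 61.2% or 41.3%, after thinning 34.1%, and without the Dcn and Lum limit (added after seeing the data) 42%. Phases from scanpy put 24.2% of cycling cells in S. Genes higher and lower were 804 and 209 in cells of 10000 to 30000 UMIs (57 against 59 cells), 775 and 650 with the median gene scaled to 1, 2369 and 764 at a filter of 20 UMIs, and 126 and 47 in cells with at most 2 marker UMIs (21 against 16 cells). Without the Dcn and Lum limit 1005 were lower. After thinning before the rule the list medians were 1.52 (S), 2.97 (G2/M), 0.35 (ribosome biogenesis) and 0.45 (splicing). With the median gene scaled to 1 they were 0.29 (ribosome biogenesis) and 0.42 (splicing). The S median was 3.08 against non-cycling cells on neither side and 2.64 without the Dcn and Lum limit, where the interferon median was 0.36. In cells with at most 2 marker UMIs medians were 0.35 (ribosome biogenesis), 0.01 (nucleotide), 0.46 (interferon), and reversed for hypoxia (0.27), immediate-early genes (1.39), proteasome (-0.07), Ndrg1 (0.43), P4ha2 (1.49), Rgcc (0.26), Ero1l (1.37), Bnip3 (0.49), Cebpd (0.51) and Lgals3 (0.06). The EGF ligand median reversed at a filter of 20 UMIs (-0.27) and without the Dcn and Lum limit (-0.30). The cause was not tested. Cxcl10 had log2 ratios of 1.05 after thinning and 0.98 without the Dcn and Lum limit. Of 344 list medians under alternatives 303 stayed within their spread, 36 moved and 5 reversed. The log2 ratios of 24 named genes were less steady: of 309 values 216 stayed, 86 moved and 7 reversed. Some list medians nearer to 0 also changed sign and are not counted as reversed. Among them, alternatives ran from -0.47 to 1.26 for chemokines, -0.31 to 0.49 for the BCL2 family and -0.28 to 0.19 for oxidative phosphorylation. No paired analysis was possible because each group has 1 library. The shallow cells and the single library limit these values.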

Other observations

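The cycling cells varied among themselves in a few genes far more than in most, and the non-cycling cells also varied widely in most of these genes. After thinning to 5000 UMIs the median variance over mean in the cycling cells was 1.15 over 3006 genes outside the cell cycle lists. Malat1, a nuclear long non-coding RNA, was at 77.4 in the cycling and 72.4 in the non-cycling cells, and Cxcl10 at 49 and 8.64. The monocyte chemokine Ccl2 was at 36.7 and 49.9 and the metallothionein Mt1 at 29.1 and 44.9. The neutrophil chemokine Cxcl1 was at 27.8 and 36.3 and the NF-kB inhibitor Nfkbia at 26.2 and 20. Cxcl10 had 0 thinned UMIs in 126 of 161 cycling cells and up to 78 in 1. Mt1 had a mean of 18.2 thinned UMIs in the cycling and 38.7 in the non-cycling cells. Spp1 varied less in the cycling cells, with a variance over mean of 14.8, against 44.6 in the non-cycling cells.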
